A study of Mus musculus with 32 samples.

Results

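The 10 genes described here carry fatty acids from circulating triglyceride into fat cells: Lpl, Gpihbp1, Lmf1, Angptl4, Cd36, Fabp3, Fabp4, Fabp5, Vldlr and Slc27a1. They were taken by name, as every array probe annotated to one of these symbols and present in the deposited value table, which gave 19 probes of the 37306 that passed the intensity filter and 10 of the 24523 gene names these cover. All 19 probes passed and were well above background on 8 of 8 arrays in every group, and none was saturated.

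RNA came from the brown adipose tissue of mice (the interscapular depot of C57BL6/J males, per the study's methods; ages are not given in the sources used here). There were 4 groups of 8 arrays, each array being 1 labelled sample. Total ChREBP-KO mice are Mlxipl-null and lack both the α and the β isoform of ChREBP, a glucose-responsive transcription factor. ChREBPβ-deficient mice had exon 1b of Mlxipl removed with CRISPR/Cas9, so that they lack the β isoform alone, and which founder they descend from is not given for these arrays. Each line was compared with its own WT littermates, called total-line WT and β-line WT below. Both deletions are present in every tissue, so a change in the depot need not arise in the adipocytes themselves. All 4 groups were on a regular diet and had fasted for 24 h and then refed for 18 h with food and water containing 20% glucose. Values are log2 of quantile-normalized fluorescence intensity, and a gene with several probes is represented by its brightest one. A gene counts as called where limma's adjusted p, over all probes, was under 0.05. P-values measure the spread between these samples, and the labels do not say how mice were allocated to them.

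Lipoprotein lipase, the product of Lpl, splits the triglyceride of chylomicrons and very low density lipoproteins at the capillary wall. It is folded in the endoplasmic reticulum with the help of Lmf1, carried across the capillary endothelium and held there by Gpihbp1, and inactivated by Angptl4. The Vldl receptor (Vldlr) docks the particles. Cd36 and the acyl-CoA synthetase-like transporter Slc27a1 (FATP1) take the released fatty acids into the cell, where the binding proteins Fabp3 (heart type), Fabp4 (adipocyte type) and Fabp5 (epidermal type) ferry them onward. Brown fat is a major site of this clearance, and it burns the fatty acids for heat. Skeletal muscle and heart also express Lpl, Cd36, Fabp3, Vldlr and Slc27a1.

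Lpl has 6 probes on the array, and the sequences are shown because the probes did not give one answer. All lie on the plus strand of chromosome 8 in build mm9. A probe designed on the RefSeq mRNA (NM_008509) at chr8:71430267-71430326, A_51_P259296, was the brightest and lay furthest 3′. A_52_P257812 (chr8:71425050-71425109) and A_66_P123790 (chr8:71419652-71419711) were designed on the same mRNA. The other 3 lay 17 to 24.7 kb upstream of the last probe and were designed on cDNA clones or an Ensembl record. These were A_55_P2900592 (AK154419, chr8:71405538-71405597), A_55_P2738847 (AK170106, chr8:71408343-71408402) and A_55_P2715720 (ENSMUST00000101463, chr8:71413311-71413370). The sequences follow from 5′ to 3′ along the chromosome, without capitals because no motif was marked.
A_55_P2900592: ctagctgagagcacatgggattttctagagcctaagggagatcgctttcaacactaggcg
A_55_P2738847: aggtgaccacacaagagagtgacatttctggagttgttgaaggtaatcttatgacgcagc
A_55_P2715720: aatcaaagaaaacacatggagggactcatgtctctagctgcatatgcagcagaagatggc
A_66_P123790: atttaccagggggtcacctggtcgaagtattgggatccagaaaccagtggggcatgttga
A_52_P257812: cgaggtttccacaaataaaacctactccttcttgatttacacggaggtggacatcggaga

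No gene annotation of this build was used here, so the exon or intron that holds each probe is not stated. GC content of the 5 printed probes was 45 to 51.7%.

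The remaining members are read by these mm9 positions of their brightest probes. Gpihbp1 was read at chr15:75428484-75428543 (NM_026730), Lmf1 at chr17:25799606-25799665 (NM_029624) and Angptl4 at chr17:33911880-33911939 (minus strand, NM_020581). Cd36 was read at chr5:17288600-17288659 (minus strand, NM_007643) and Vldlr at chr19:27324042-27324101 (NM_013703). Slc27a1 was read at chr8:74110256-74110315 (NM_011977), Fabp3 at chr4:129992652-129992711 (NM_010174), Fabp4 at chr3:10204452-10204511 (minus strand, NM_024406) and Fabp5 at chr3:10016185-10016244 (NM_001272097).

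ChREBP binds pairs of E-boxes, so the core E-box CACGTG was looked for in the 250 bases before the start of each member in the RefSeq promoter table (GRCm38.p6). The table held 8 windows for 5 members, namely Lmf1, Cd36, Fabp3, Vldlr and Slc27a1. Of these, 1 held the motif, against 6.02% of all 32851 windows. It is 1 of 3 starts of Slc27a1, with the first motif base 202 bases before the start, and it is shown because Slc27a1 was lower in both KO groups, with the E-box in capitals.
Slc27a1, chr8:71570344-71570593 (plus strand): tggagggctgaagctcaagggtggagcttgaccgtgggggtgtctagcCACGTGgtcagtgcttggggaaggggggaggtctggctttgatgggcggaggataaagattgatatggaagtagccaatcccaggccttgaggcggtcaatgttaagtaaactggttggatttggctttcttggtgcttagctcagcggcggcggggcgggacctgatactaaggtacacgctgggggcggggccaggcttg

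The nuclear receptor motif AGGTCA, searched on either strand because PPARγ binds a pair of such sites, was found in 1 of the 8 windows (Cd36) against 14.0% of all. CACGTG reads the same on both strands. Pairs of either motif were not searched for, and a match is only a match of letters.

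The targeted gene was read by 3 probes. The brightest Mlxipl probe averaged 16.16 ± 0.12 (SD) in total-line WT and 13.68 ± 0.15 in total ChREBP-KO, and 16.35 ± 0.14 in β-line WT and 14.85 ± 0.10 in ChREBPβ-deficient mice (n = 8 each). A second probe averaged 11.12, 10.35, 11.77 and 10.63 in these groups, and A_55_P2045158 averaged 11.23, 11.37, 11.45 and 11.37, so that it did not separate KO from WT mice. Which of the probes lie in the deleted parts is not stated in the sources used here. The share of spots clearly above background was 64.4 to 71.1% per array. The arrays were spread over 15 slides, 4 wash batches and 2 scan days, and each wash batch held arrays of all 4 groups.

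RNA of neighbouring tissues differed strongly between the 2 lines. The mean of 12 skeletal muscle genes ran from 12.81 to 16.17 in total-line WT and from 14.34 to 15.84 in total ChREBP-KO mice. It ran from 5.67 to 11.96 in β-line WT and from 5.77 to 11.41 in ChREBPβ-deficient mice, so the lines did not overlap. All 12 muscle genes were well above background on every array of the total line, against 7 of 12 in β-line WT and 8 of 12 in ChREBPβ-deficient mice. Within a line none of the 12 was called (median difference 0.08 in total ChREBP-KO and -0.70 in ChREBPβ-deficient mice), whereas 12 of 12 were lower in β-line WT than in total-line WT, with a median difference of -6.39.

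The mean of 12 liver genes ran from 6.01 to 10.74 in total-line WT and from 6.14 to 8.74 in total ChREBP-KO mice. It ran from 6.08 to 12.74 in β-line WT and from 5.96 to 12.40 in ChREBPβ-deficient mice. The highest array of total ChREBP-KO mice was therefore below the highest array of each other group. By limma 0 of 12 liver genes were called in either KO comparison (median difference -0.75 in total ChREBP-KO and 0.03 in ChREBPβ-deficient mice). Between β-line WT and total-line WT the median difference was 2.01, with 1 of 12 called, higher in the β line. Macrophage genes were lower in 6 of 7 cases in total ChREBP-KO mice, where 21.1% of all gene names were lower. Between the WT groups, 8 of 10 endothelial genes were higher in the β line, where 24.8% of all gene names were higher. In the same comparison 6 of 7 macrophage genes and 4 of 6 white adipocyte genes were lower, where 14.1% of all gene names were. Each of these lists also had 1 gene that was called higher. The 10 brown adipocyte genes averaged 14.72 to 15.01 in the 4 groups, but 4 were higher and 3 lower in total ChREBP-KO mice, and 3 were higher and 4 lower in β-line WT than in total-line WT. Fewer cells of a type and less RNA per cell cannot be told apart in such bulk samples.

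In total ChREBP-KO mice 5 of the 10 genes were higher than in their WT littermates (Lpl, Lmf1, Cd36, Fabp3 and Vldlr) and 2 were lower (Fabp5 and Slc27a1). Gpihbp1, Angptl4 and Fabp4 did not pass the test. Over all gene names, 23.0% were called higher and 21.1% lower in this comparison. The median difference of the 10 genes was 0.32 against 0.01 over all genes, and the median absolute difference was 0.61 against 0.17. In ChREBPβ-deficient mice 2 genes were higher (Fabp3 and Vldlr) and 2 were lower (Fabp5 and Slc27a1), where 1.37% of all gene names were called higher and 1.33% lower. The 4 had the same sign in total ChREBP-KO mice. None of these 4 calls in the β line held with slide as a block, where the differences were 0.49 for Fabp3, 0.26 for Vldlr, -0.61 for Fabp5 and -0.67 for Slc27a1 (limma adjusted p = 0.116, 0.392, 0.353 and 0.0724). The median absolute difference here was 0.24 against 0.07 over all genes. For every member at most 17.2% of the kept probes were brighter, and the medians over all genes were not matched for intensity.

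**Figure D1:**
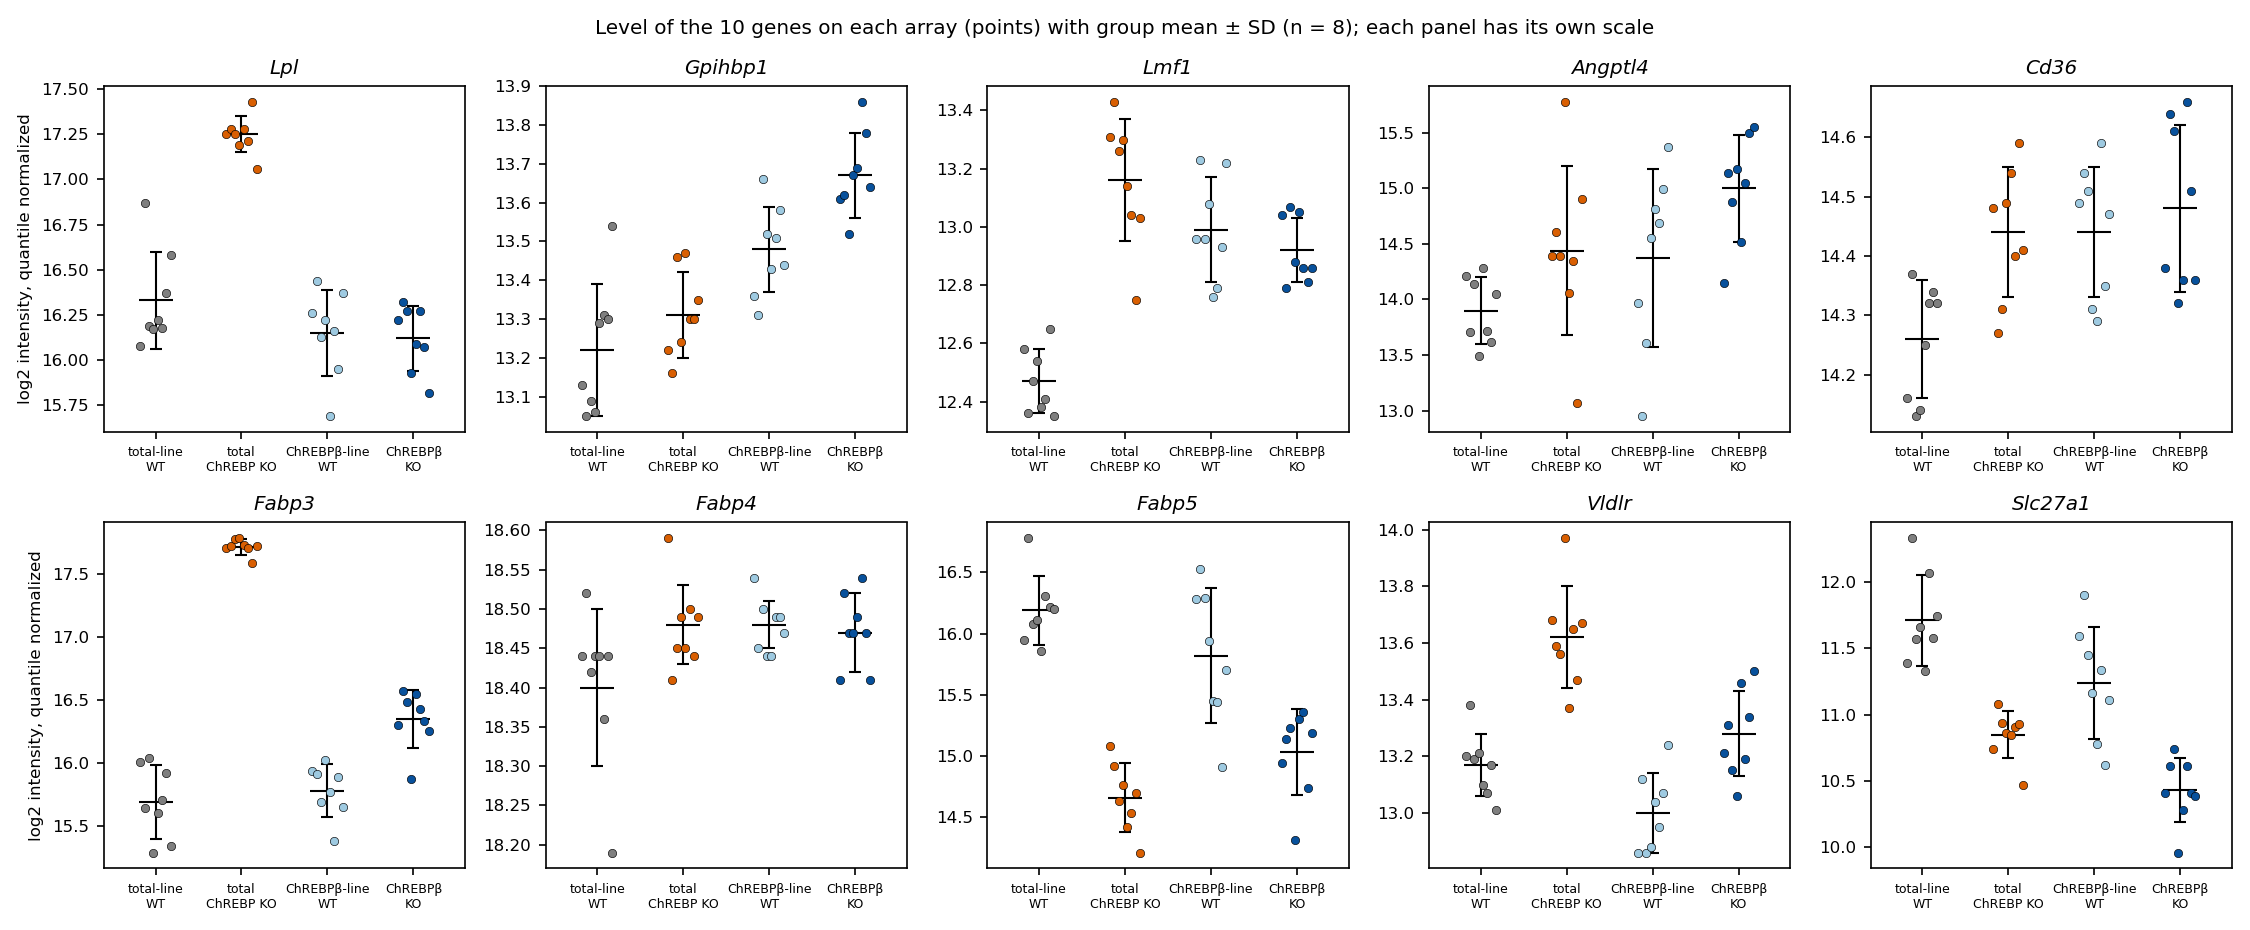
Each panel gives 1 of the 10 genes, with every array as a point (log2 quantile-normalized intensity, vertical axis) in the 4 groups and the mean ± SD of 8 arrays as a bar. Fabp3 and Lpl form a separate, tight cluster in total ChREBP-KO mice, while Fabp4 stays between 18.19 and 18.59 in every group.

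The enzyme Lpl ran from 16.08 (median 16.20) to 16.87 in total-line WT and from 17.06 (median 17.25) to 17.43 in total ChREBP-KO mice. It ran from 15.69 (median 16.19) to 16.44 in β-line WT and from 15.82 (median 16.16) to 16.32 in ChREBPβ-deficient mice. All 8 total ChREBP-KO arrays were above every array of the other groups, and the other 3 groups overlapped. Lpl was 1.88-fold higher in total ChREBP-KO mice (log2 difference 0.91, SE 0.10, limma adjusted p = 6.54e-09). The exact two-sided permutation p was 0.000155, the smallest that 12870 splits of 8 against 8 arrays allow. In ChREBPβ-deficient mice the difference was -0.03 (95% interval -0.24 to 0.18, limma adjusted p = 0.959). The 2 KO effects themselves differed by -0.94 (β line minus total line, SE 0.14, limma adjusted p = 7.24e-06).

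With the muscle and liver means as covariates, the Lpl difference in total ChREBP-KO mice was again 0.91 (limma adjusted p = 1.14e-08). Within the 4 wash batches it was 1.06, 0.74, 0.91 and 0.96.

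The 6 Lpl probes split by design. Both other mRNA probes rose as the brightest one did in total ChREBP-KO mice, by 0.92 (A_52_P257812, limma adjusted p = 5.37e-09) and 0.94 (A_66_P123790, limma adjusted p = 1.86e-08). Probe A_55_P2900592 averaged 13.11 in total-line WT and 13.46 in total ChREBP-KO mice, a difference of 0.35 that did not pass (limma adjusted p = 0.234). The other 2 upstream probes gave 0.21 each (limma adjusted p = 0.547 for A_55_P2738847 and 0.45 for A_55_P2715720). These 3 probes were not dim, with group means of 10.63 to 13.62.

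Between the WT groups it was the upstream probes that differed most. The brightest Lpl probe differed by -0.18 (β-line WT minus total-line WT, limma adjusted p = 0.166), A_52_P257812 by -0.32 (0.0107) and A_66_P123790 by -0.53 (0.000261). The 3 upstream probes differed by -0.86 to -1.27, all called, with the largest difference at A_55_P2738847 (-1.27, limma adjusted p = 0.000165). For the mRNA probes the difference was larger the further 5′ the probe lay, an order that was not tested. After subtraction of group means, the upstream probes correlated with each other across the 32 arrays at r = 0.94 to 0.98 and the mRNA probes at 0.70 to 0.90, but pairs across the 2 kinds at only 0.27 to 0.45. This is a description, and the points share RNA and array.

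The muscle list was also lower in this comparison, and its part in the result was not tested. Within total-line WT the upstream probes had Pearson r of -0.73 to -0.84 with the muscle mean. Their r was -0.13 to 0.22 in total ChREBP-KO, -0.26 to -0.43 in β-line WT and -0.43 to -0.45 in ChREBPβ-deficient mice. None of these relations passed 0.05 after adjustment over the 152 relations computed. With the muscle and liver means as covariates the upstream probes differed by -1.34 to -1.69, but the muscle means of the lines do not overlap, so that these and all such adjusted values between the WT groups are extrapolations. With the mean of all 6 probes in place of the brightest, the KO effect in the total line was 0.59 and still called. The difference between the KO effects was then -0.51 (limma adjusted p = 0.0592), and that between the WT groups -0.72, now called (limma adjusted p = 0.000118). Whether the upstream probes read unspliced or alternative Lpl RNA was not tested.

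**Figure D2:**
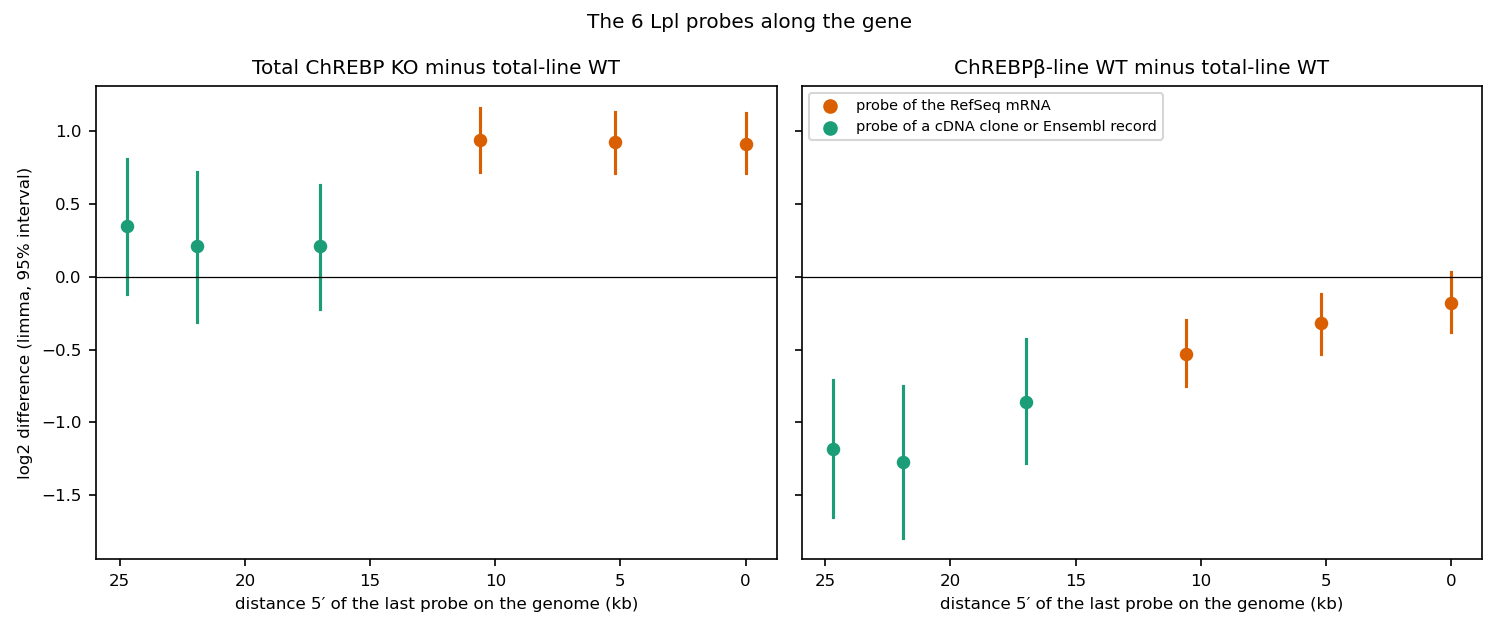
Log2 difference with its 95% interval (vertical axis) at each of the 6 Lpl probes, placed by distance in kb 5′ of the last probe, for the comparisons named above the panels. The 3 mRNA probes lie at 0.91 to 0.94 in the total ChREBP-KO comparison and the 3 upstream probes at 0.21 to 0.35.

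Lmf1, the maturation factor of the lipase, ran from 12.35 (median 12.44) to 12.65 in total-line WT and from 12.75 (median 13.20) to 13.43 in total ChREBP-KO mice. It ran from 12.76 (median 12.96) to 13.23 in β-line WT and from 12.79 (median 12.87) to 13.07 in ChREBPβ-deficient mice. Total-line WT lay below every array of the other 3 groups, which overlapped among themselves. Lmf1 was 1.61-fold higher in total ChREBP-KO mice (log2 difference 0.69, SE 0.08, limma adjusted p = 1.54e-08). In ChREBPβ-deficient mice the difference was -0.07 (95% interval -0.23 to 0.09, limma adjusted p = 0.803), and the KO effects differed by -0.76 (SE 0.11, limma adjusted p = 4.94e-06).

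The WT groups differed too, and β-line WT was 1.44-fold above total-line WT (log2 difference 0.52, limma adjusted p = 4.24e-06). A dimmer Lmf1 probe, A_55_P2177988, also rose in total ChREBP-KO mice, from 7.57 to 7.80 (log2 difference 0.23, limma adjusted p = 0.00285). At that probe neither the difference between the WT groups (0.05, limma adjusted p = 0.561) nor that between the KO effects (-0.21, limma adjusted p = 0.0736) passed.

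Gpihbp1, the capillary anchor, ran from 13.05 (median 13.21) to 13.54 in total-line WT and from 13.16 (median 13.30) to 13.47 in total ChREBP-KO mice. It ran from 13.31 (median 13.47) to 13.66 in β-line WT and from 13.52 (median 13.66) to 13.86 in ChREBPβ-deficient mice. The groups overlapped within each line. The KO differences were 0.09 (95% interval -0.04 to 0.22, limma adjusted p = 0.27) and 0.20 (0.07 to 0.33, limma adjusted p = 0.1), and neither passed. The exact permutation p of the second was 0.0028 before any adjustment. Gpihbp1 was higher in β-line WT than in total-line WT by 0.26 (limma adjusted p = 0.00205), and in the same comparison the mean of the endothelial list was 11.62 ± 0.11 against 11.31 ± 0.13 (SD, n = 8). Its part in the result was not tested.

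Angptl4, the fasting-induced inhibitor of the lipase, was the most variable member. It ran from 13.49 (median 13.89) to 14.28 in total-line WT and from 13.07 (median 14.39) to 15.78 in total ChREBP-KO mice. It ran from 12.95 (median 14.62) to 15.37 in β-line WT and from 14.15 (median 15.10) to 15.55 in ChREBPβ-deficient mice. All groups overlapped, and the total ChREBP-KO arrays reached both below and above their WT littermates. The difference was 0.54 in total ChREBP-KO (95% interval -0.06 to 1.14, limma adjusted p = 0.141) and 0.63 in ChREBPβ-deficient mice (0.03 to 1.23, limma adjusted p = 0.327). Both intervals reach beyond a doubling, so these arrays set only a loose limit on a change of Angptl4. Without replicate 7 of the total ChREBP-KO mice the first became 0.74 (limma adjusted p = 0.0305).

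Vldlr ran from 13.01 (median 13.18) to 13.38 in total-line WT and from 13.37 (median 13.62) to 13.97 in total ChREBP-KO mice. It ran from 12.86 (median 13.00) to 13.24 in β-line WT and from 13.06 (median 13.26) to 13.50 in ChREBPβ-deficient mice. Both KO groups were shifted upward, and in the total line the ranges only just touched. Vldlr was 1.37-fold higher in total ChREBP-KO (log2 difference 0.45, SE 0.07, limma adjusted p = 6.75e-06) and 1.21-fold higher in ChREBPβ-deficient mice (0.28, SE 0.07, limma adjusted p = 0.035). The second call was lost on leaving out any of 8 single arrays, replicates 1, 3, 4 and 6 of β-line WT and 2, 5, 7 and 8 of ChREBPβ-deficient mice (limma adjusted p = 0.0569 to 0.0888).

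The KO effects on Vldlr differed by -0.18 (95% interval -0.39 to 0.04, limma adjusted p = 0.236). The second Vldlr probe, A_51_P500044, gave 0.07 in total ChREBP-KO mice (limma adjusted p = 0.4) and 0.26 in ChREBPβ-deficient mice (limma adjusted p = 0.0274), so the probes disagreed in the total line. At the brightest Vldlr probe the relation to the liver list did not have the same sign in every group. Pearson r was 0.90 in ChREBPβ-deficient mice (rho = 0.93, exact permutation p = 0.00221) and 0.87 in total-line WT (rho = 0.76, exact permutation p = 0.00784), but 0.38 in β-line WT (rho = 0.43, exact permutation p = 0.345) and -0.45 in total ChREBP-KO mice (rho = -0.74, exact permutation p = 0.275 for r and 0.0458 for rho). Without the 2 arrays farthest from the median of the liver mean, r was 0.82, 0.86, 0.41 and -0.81 in that order. Adjusted over the 152 relations computed, the first p-values were 0.117 and 0.238, and none of the 152 passed 0.05 (11 did so unadjusted). At A_51_P500044 r with the liver list lay between -0.59 and 0.26. Its r with the muscle list was 0.79 in total-line WT, 0.87 in total ChREBP-KO, -0.19 in β-line WT and -0.04 in ChREBPβ-deficient mice. With the muscle and liver means as covariates the KO differences at the brightest probe were 0.47 and 0.27 (limma adjusted p = 1.43e-06 and 0.025).

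Cd36, the fatty acid translocase, ran from 14.13 (median 14.29) to 14.37 in total-line WT and from 14.27 (median 14.45) to 14.59 in total ChREBP-KO mice. It ran from 14.29 (median 14.48) to 14.59 in β-line WT and from 14.32 (median 14.44) to 14.66 in ChREBPβ-deficient mice. All groups overlapped. Cd36 was 1.13-fold higher in total ChREBP-KO mice (log2 difference 0.18, SE 0.06, limma adjusted p = 0.0149), and this call was lost when arrays were scaled to their 75th percentile (0.06, limma adjusted p = 0.436). The difference in ChREBPβ-deficient mice was 0.04 (95% interval -0.09 to 0.16, limma adjusted p = 0.885).

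Slc27a1, the FATP1 transporter, ran from 11.33 (median 11.62) to 12.33 in total-line WT and from 10.47 (median 10.89) to 11.08 in total ChREBP-KO mice. It ran from 10.62 (median 11.25) to 11.90 in β-line WT and from 9.96 (median 10.41) to 10.74 in ChREBPβ-deficient mice. The groups of the total line did not overlap, and those of the β line did so at the edge. Slc27a1 fell by 0.86 on the log2 scale in total ChREBP-KO (SE 0.15, limma adjusted p = 1.51e-05) and by 0.82 in ChREBPβ-deficient mice (SE 0.15, limma adjusted p = 0.00127). The KO effects differed by 0.04, with a 95% interval of -0.38 to 0.47 (limma adjusted p = 0.914).

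Within the wash batches the Slc27a1 difference in the β line was -1.71, -0.73, -0.26 and -0.47, each from 3 to 5 arrays. Slc27a1 was also lower in β-line WT than in total-line WT by 0.47 (limma adjusted p = 0.0122), a call lost with the muscle and liver means as covariates (-0.42, limma adjusted p = 0.297).

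**Figure D3:**
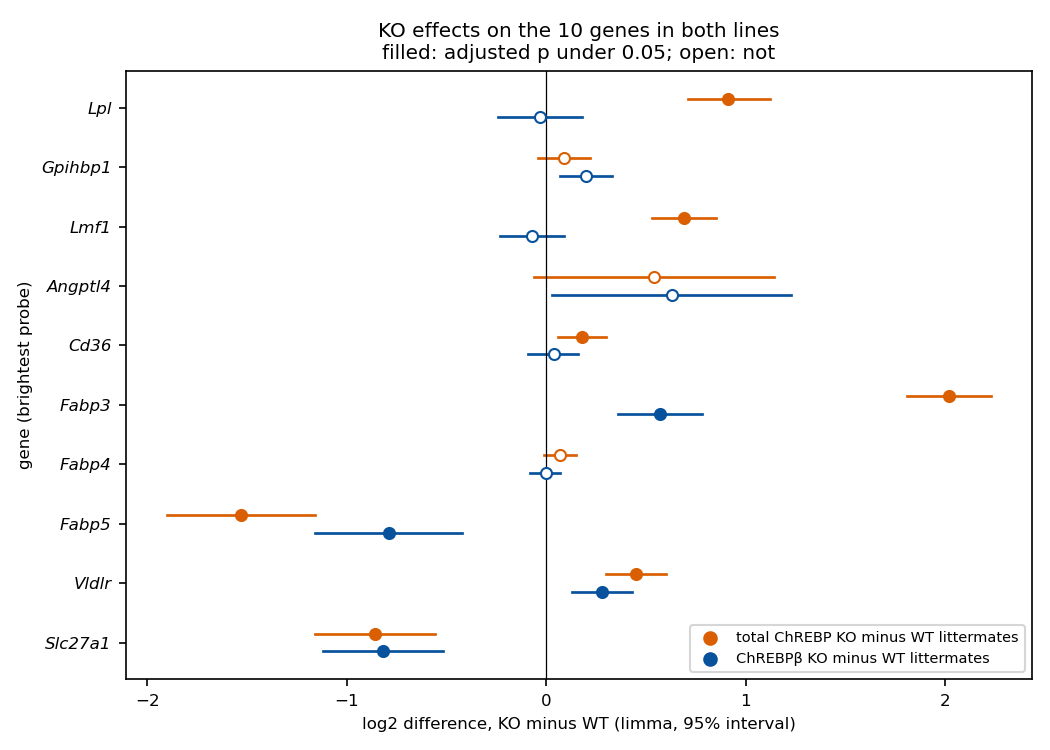
Log2 difference (KO minus WT littermates, horizontal axis, with 95% interval) of the 10 genes in the total line and the β line, with filled points for limma adjusted p under 0.05. Lpl and Lmf1 stand apart from 0 in the total line alone, whereas Slc27a1 lies at -0.86 and -0.82.

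Fabp3, the heart-type binding protein, had the largest difference of the 10 genes in total ChREBP-KO mice, though not in ChREBPβ-deficient mice. It ran from 15.29 (median 15.68) to 16.04 in total-line WT and from 17.58 (median 17.72) to 17.78 in total ChREBP-KO mice. It ran from 15.38 (median 15.83) to 16.02 in β-line WT and from 15.87 (median 16.38) to 16.57 in ChREBPβ-deficient mice. Every total ChREBP-KO array was above every other array, and the β-line groups overlapped slightly. Fabp3 was 4.05-fold higher in total ChREBP-KO (log2 difference 2.02, SE 0.10, limma adjusted p = 8.94e-17) and 1.48-fold higher in ChREBPβ-deficient mice (0.57, SE 0.10, limma adjusted p = 0.00132). The effects differed by -1.45 (SE 0.15, limma adjusted p = 3.19e-09).

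A second Fabp3 probe, A_55_P1974367, overlaps the first on the transcript and gave 2.13 and 0.55 (limma adjusted p = 9.21e-18 and 0.00127). Muscle expresses Fabp3 as well. Between the WT groups Fabp3 differed by 0.09 (limma adjusted p = 0.539) and the muscle list by a median of -6.39, and the part of muscle RNA in the Fabp3 signal was not tested. With the muscle and liver means as covariates the KO differences were 2.02 and 0.58, both called.

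Fabp5, the epidermal-type binding protein, went the other way. It ran from 15.86 (median 16.16) to 16.78 in total-line WT and from 14.21 (median 14.67) to 15.08 in total ChREBP-KO mice. It ran from 14.91 (median 15.82) to 16.53 in β-line WT and from 14.31 (median 15.16) to 15.36 in ChREBPβ-deficient mice. The total-line groups did not overlap and the β-line groups did. Fabp5 fell by 1.53 on the log2 scale in total ChREBP-KO (SE 0.18, limma adjusted p = 2.37e-08), or 2.89-fold, and by 0.79 in ChREBPβ-deficient mice (SE 0.18, limma adjusted p = 0.011), or 1.73-fold. The effects differed by 0.74 (SE 0.26, limma adjusted p = 0.0322), and without the 2 arrays per group richest in liver RNA by 0.33 (0.415).

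Within the wash batches the Fabp5 difference in the β line was -1.90, -0.99, 0.17 and -0.17, so it did not keep its sign in every batch. The macrophage list, which was lower in total ChREBP-KO mice, averaged 10.73 ± 0.26 in total-line WT and 10.06 ± 0.12 in total ChREBP-KO mice (SD, n = 8). Macrophages express Fabp5 and Fabp4 too, and their part in the Fabp5 result was not tested.

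Fabp4, the adipocyte binding protein aP2, was among the brightest genes of the array, with 10 probes brighter than it. It ran from 18.19 (median 18.44) to 18.52 in total-line WT and from 18.41 (median 18.47) to 18.59 in total ChREBP-KO mice. It ran from 18.44 (median 18.48) to 18.54 in β-line WT and from 18.41 (median 18.47) to 18.54 in ChREBPβ-deficient mice. All groups overlapped, and the difference was 0.07 in total ChREBP-KO (95% interval -0.01 to 0.15, limma adjusted p = 0.134). Quantile normalization leaves the brightest probes little room to vary, and this probe took only 12 distinct values over the 32 arrays. A dimmer Fabp4 probe, A_52_P564544, gave 0.23 in total ChREBP-KO mice (limma adjusted p = 0.00118), but not under 75th percentile scaling.

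Between the WT groups, which carry no deletion, 3 genes were higher in the β line (Gpihbp1, Lmf1 and Cd36) and 1 was lower (Slc27a1). Of all gene names 24.8% were higher and 14.1% lower in that comparison. The median absolute difference of the 10 genes was 0.22 against 0.15 over all genes. Cd36 differed by 0.19 (limma adjusted p = 0.0126). Vldlr was not called by its brightest probe (-0.16, limma adjusted p = 0.079), but its second probe, A_51_P500044, was lower in the β line (-0.32, limma adjusted p = 0.000308). The muscle list differed between these groups, and with both list means as covariates Gpihbp1 and Lmf1 alone were still called. Of the differences between the KO effects, 1 was called higher (Fabp5) and 3 lower (Lpl, Lmf1 and Fabp3), beside 12.2% and 13.1% of all gene names.

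**Figure D4:**
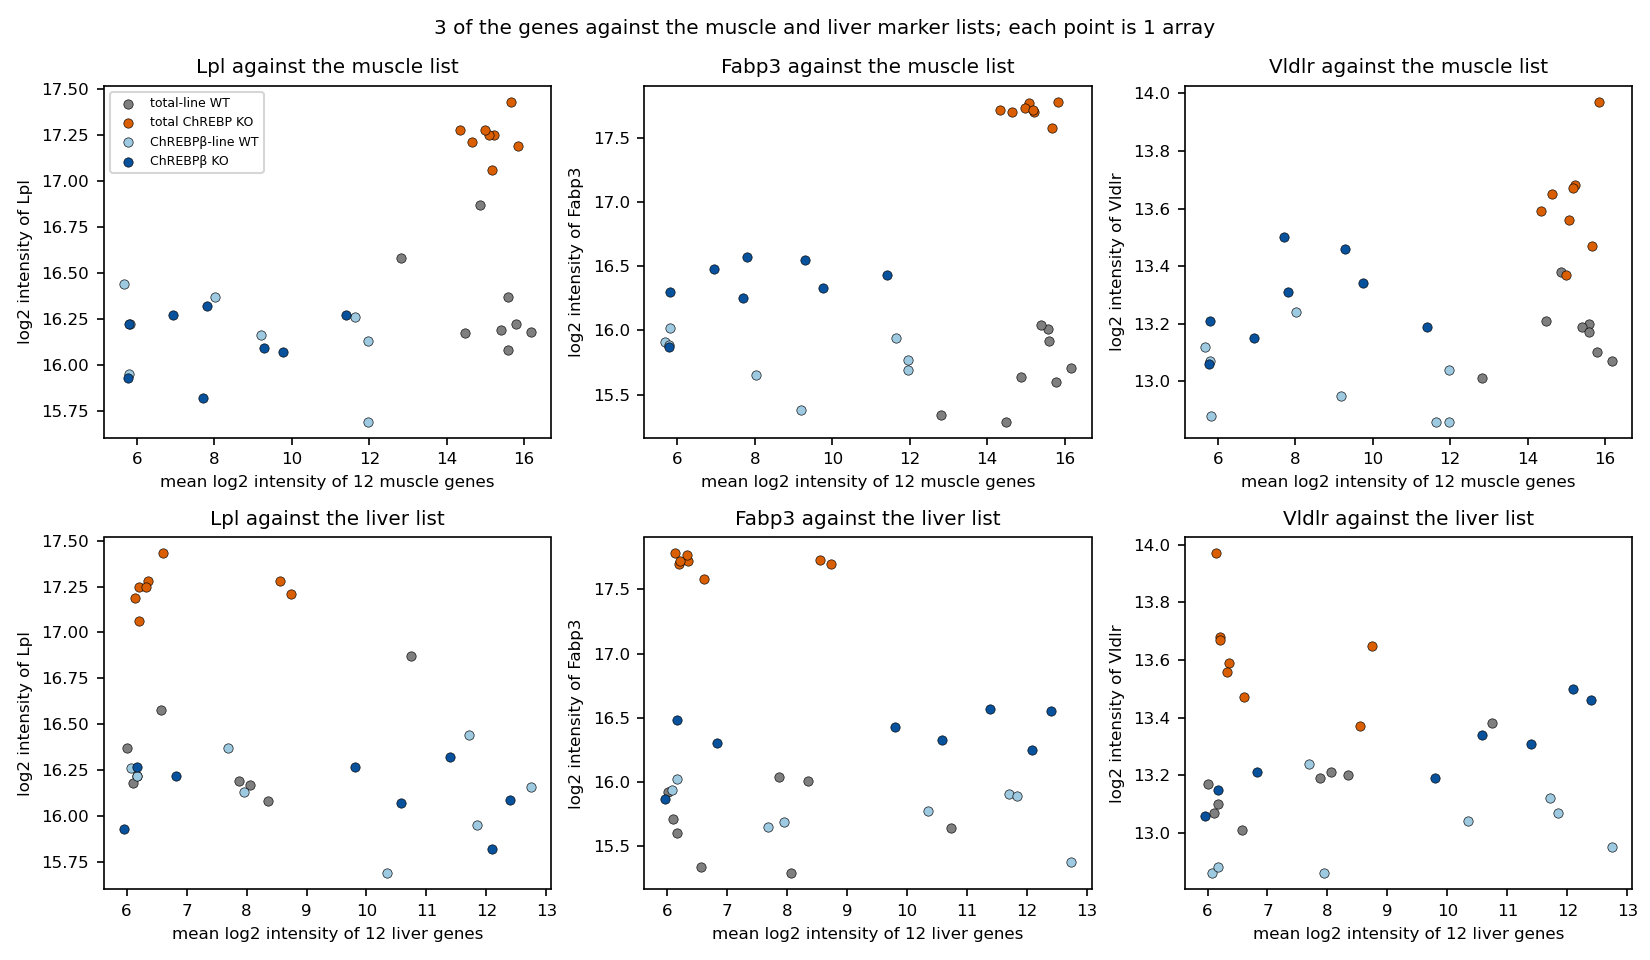
Log2 intensity of the named members (vertical axes) against the mean log2 intensity of 12 skeletal muscle or 12 liver genes (horizontal axes), with 1 point per array and the groups in colour. The total-line arrays sit at muscle means of 12.81 and above and the β-line arrays at 11.96 and below.

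The same route holds other genes that load, dock or activate fatty acids, and 25 of 28 listed ones passed the filter. In total ChREBP-KO mice 6 were higher, 8 lower and 11 not called, beside 23.0% and 21.1% of all gene names. For the higher calls, 6 of 25 is near the share of all genes. The 2 highest were Slc27a2, a very long chain acyl-CoA synthetase and transporter (log2 difference 0.96, limma adjusted p = 1.08e-05), and Cav1, the coat protein of caveolae (0.86, 5.94e-11). The 2 lowest were Acsl5, an acyl-CoA synthetase (fell by 3.41, limma adjusted p = 8.05e-15), and Angptl8, which works with other angiopoietin-like proteins on the lipase (fell by 1.70, limma adjusted p = 2.78e-11). Acsl5 averaged 14.86 in total-line WT, 11.45 in total ChREBP-KO, 14.34 in β-line WT and 13.06 in ChREBPβ-deficient mice. The synthetases did not move together, since Acsl1 rose by 0.74 while Acsl3 and Acsl4 fell by 0.79 and 0.62.

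In ChREBPβ-deficient mice 2 of the 25 were higher, 1 lower and 22 not called, beside 1.37% and 1.33% of all gene names. Cav1 rose by 0.50 (limma adjusted p = 0.000174) and Cav2 by 0.30 (0.00589), while Acsl5 fell by 1.28 (0.000404). All 3 had the same sign in total ChREBP-KO mice. Angptl8 averaged 14.69 in total-line WT, 12.98 in total ChREBP-KO, 15.48 in β-line WT and 15.61 in ChREBPβ-deficient mice. Its mean was lowest in total ChREBP-KO mice, and its KO effects differed by 1.83 (limma adjusted p = 3.74e-08). The KO effects also differed for Acsl5 (2.13, limma adjusted p = 1.46e-06), Slc27a2 (-1.18, 0.000243) and Apoc1 (-0.61, 0.000201), and in all for 15 of the 25 genes, 9 higher and 6 lower, beside 12.2% and 13.1% of all gene names.

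Between the WT groups 5 of the 25 were higher and 6 lower in the β line, beside 24.8% and 14.1% of all gene names. Angptl8 and Cav2 were highest (0.80 and 0.31, limma adjusted p = 5.75e-05 and 0.000214). Acsl6 was at least 3.46-fold lower in β-line WT, where no array had its probe well above background (limma adjusted p = 1.9e-09). This bound sets its mean in total-line WT, 6.47, against the lowest signal well above background in β-line WT. Got2, a mitochondrial aminotransferase that also binds fatty acids at the cell surface, was lower by 1.24 on the log2 scale (-1.24, limma adjusted p = 1.68e-08). The muscle list was lower in the same comparison, and its part in these differences was not tested.

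**Figure D5:**
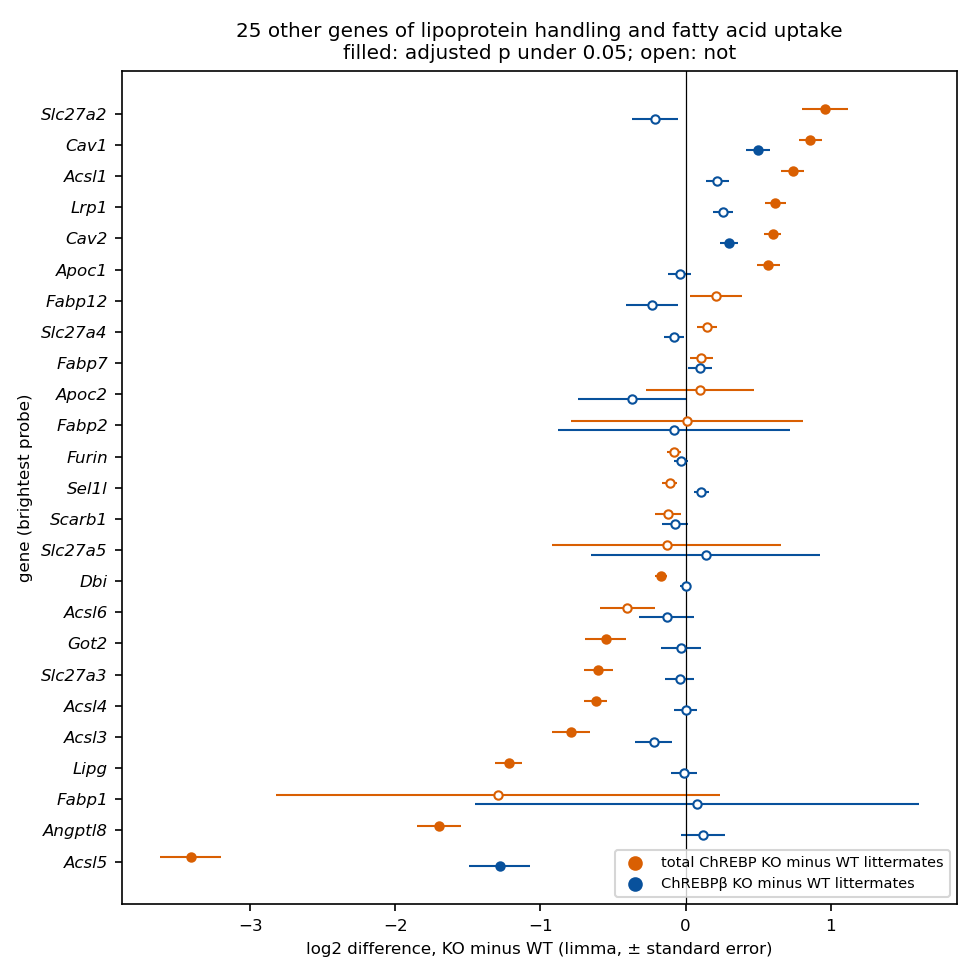
Log2 difference (KO minus WT littermates, horizontal axis, ± SE) of 25 further genes of lipoprotein handling and fatty acid uptake in both lines, with filled points for limma adjusted p under 0.05. Acsl5 lies furthest to the left in both lines, at -3.41 and -1.28.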

How the data were processed

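Brown adipose tissue RNA was labelled with Cy3 and hybridised to Agilent 1-colour mouse arrays. The authors extracted intensities with Agilent Feature Extraction 10.10.1.1 (submitters' processing notes), and the deposited files hold each spot's median pixel intensity, not normalized. The deposited value table holds the authors' log2 values after their spot filter and quantile normalization, and was used to define probes and as an alternative. Probe positions are mm9 per the file headers.

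Here, control spots were left out, and a spot was kept where the scanner software marked it found, positive and clearly over background in 26 or more of the 32 arrays or in 6 or more of a group (39985 of 59305). Quantile normalization was run on the linear median intensities, followed by log2 and the median over repeat spots of a probe. The mean absolute gap to the authors' log2 values was 0.0113. Groups were fitted over all 32 arrays with lmFit and eBayes of limma 3.58.1 in R 4.3.3, with Benjamini-Hochberg adjustment over 37306 probes. The 2 KO effects, their difference and the WT groups were compared. Single members were also tested with two-sided exact permutation over arrays, and within-group relations to the marker lists with exact permutation over pairings. The precision is limited by the 8 arrays of a group. No array pair correlated above 0.99748. The limma fit was checked on simulated data with independent noise and no slide or batch structure. The permutation tests were not checked in this way.

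Members, marker lists and the pathway list were chosen with earlier results of these data known. All members are named by their brightest probe, with other probes beside it. Of the pathway list the 2 highest and 2 lowest called genes per comparison are named, and the other named ones (Acsl1, Acsl3 and Acsl4) were chosen after their values were seen. The probes named Gm6484 on the array were taken as Angptl8. Alternatives covered background correction, scaling, the deposited table, filters, wash batch, slide or replicate number as a block, array weights, moderation, thresholds, the mean of all probes, muscle and liver means as covariates, and leaving out each array. Muscle or liver alone as a covariate, and leaving out the 2 arrays per group richest in liver RNA, were added after seeing the data.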

Additional observations from a re-analysis of the deposited data

Results flagged for a closer look

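The KO effect differed between the lines by a test of the difference itself (β line minus total line, limma adjusted p under 0.05) for Lpl (-0.94), Lmf1 (-0.76), Fabp3 (-1.45) and Fabp5 (0.74).

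Of 40 tests for a single array far from the rest of its group of 8, 3 exceeded Dixon's critical value, where chance gives about 1 in 20. Fabp3 was 17.58 in replicate 7 of the total ChREBP-KO mice (nearest array 17.70) and 15.87 in replicate 4 of the ChREBPβ-deficient mice (nearest 16.25). Fabp4 was 18.19 in replicate 8 of the total-line WT (nearest 18.36).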

How the results depend on the processing

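Of 2070 member differences recomputed under the alternatives, 1973 counted as unchanged, 38 lost a call, 14 gained one and 2 with a main call reversed. Another 43 single-batch values moved beyond the replicate SD, and those within it counted as unchanged. A difference called in neither fit also counted as unchanged, even where its sign changed. For Lpl in the β line it was -0.03 in the main fit and 0.2 with slide as a block. In total ChREBP-KO mice the calls of Lpl, Lmf1, Fabp3, Fabp5, Vldlr and Slc27a1 held in all 49 settings. These settings leave out the stricter thresholds, and Vldlr, 1.37-fold higher, falls short of 1.5-fold. With the thresholds included, 5 to 8 members were called in that line. The members called, 7 in the total line, 4 in the β line, 4 for the difference between KO effects and 4 between WT groups, ranged over 7 to 8, 3 to 4, 3 to 4 and 4 to 5 when single arrays were left out. In the β line 2 members were called at adjusted p under 0.01, 2 at a change of at least 1.5-fold, 2 with only that line's arrays, and 0 with slide as a block. Under that slide block calls over all probes went from 484 higher and 469 lower to 75 and 68. Between WT groups 2 members were called at adjusted p under 0.01, 0 at 1.5-fold, 2 with both list means as covariates, 1 with the muscle mean alone, and 2 without the arrays richest in liver RNA. The cause of these changes was not tested. Reversed values were Fabp5 in the β line within wash batch 3 (0.17) and Slc27a1 between WT groups within wash batch 1 (0.28). Fabp5's difference between KO effects lost its call without any one of replicate 2 of total-line WT, 8 of total ChREBP-KO, 5, 6 or 7 of β-line WT or 5 or 6 of ChREBPβ-deficient mice (limma adjusted p = 0.0502 to 0.0565). Between WT groups, Fabp5 gained a call without β-line WT replicate 2 (-0.47, 0.0338) and Vldlr without replicate 8 (-0.20, 0.0345). Deviations of same-numbered samples from their group means correlated at r = -0.30 to 0.08 in the total line and -0.20 to 0.53 in the β line. Differently numbered samples were not set beside them, so whether the numbers pair samples was not tested. With the replicate block 7, 3, 4 and 4 members were called, Vldlr in the β line having an adjusted p of 0.0505. Arrays bound precision, and Fabp4 sits where quantile normalization compresses differences.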

Other observations

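After subtraction of the group means, some members varied together across the 32 arrays and others did not. Fabp5 and Slc27a1 had the highest correlation among the 10 genes (r = 0.82), followed by Lpl with Slc27a1 (0.71), Lpl with Cd36 (0.62) and Lpl with Fabp5 (0.59). Lpl had r between -0.06 and 0.07 with Gpihbp1, Fabp3, Fabp4 and Vldlr, and Gpihbp1 had -0.40 with Vldlr. Angptl4 had r = -0.48 with Slc27a1, -0.47 with Fabp5, -0.38 with Lpl and -0.23 with Cd36, but 0.42 with Vldlr. With Gpihbp1, Lmf1, Fabp3 and Fabp4 its r lay between -0.01 and 0.09. Over all 24522 other gene names, the 5 most like Lpl were Rbks (r = 0.837), Acot5 (0.828), Cnnm2 (0.826), Tmem179b (0.824) and Apmap (0.809). These are descriptions over 32 arrays that share wash batches and slides, and no test was made.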
